A study of Mus musculus with 20 samples.

Results

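Fc gamma receptors are the cell surface receptors through which microglia and other phagocytes bind the constant part of IgG antibodies. The mouse family was followed here as 5 genes, chosen by symbol: the activating receptors Fcgr1, Fcgr3 and Fcgr4, the inhibitory receptor Fcgr2b, and Fcer1g, which encodes the signalling chain that the activating receptors share. Each symbol matched 1 Ensembl identifier, so the family made up 5 of the 55487 genes in the count table. In outline, LPS raised Fcgr4 and Fcgr2b severalfold and lowered Fcgr3 in young as well as aged BV-2 microglia. After LPS all 5 genes were lower in aged than in young BV-2 microglia. In that comparison 29.0% of all tested genes were called, 15.0% lower. Of 13 microglia and macrophage markers, 6 were lower and 1 higher.

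BV-2 is an immortalised mouse microglial cell line, derived from brain cultures of C57BL/6 mice and labelled wild type. mRNA was sequenced from 20 cultures in 4 groups of 5: young untreated, aged untreated, young treated with LPS and aged treated with LPS, where LPS is bacterial lipopolysaccharide given at 100 ng/ml for 6 hours. Aged cells are the same line after prolonged passaging and young cells are the line at low passage, so the model describes time in culture of a dividing line and not the age of an animal. The labels number the cultures of each group 1 to 5 and call that number the batch. The number of cultures kept separate during the prolonged passaging was not given in the sources used here, so p-values measure the spread between these cultures. Libraries held between 11371508 and 16829292 counts assigned to genes. Levels are given as CPM, a gene's counts set against the total of its library, with totals scaled by the trimmed mean of M values (TMM). The lowest count of any family member in any library was 52, for Fcgr4, well above the 3 counts taken as the floor of detection.

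Activating Fc gamma receptors bind IgG in immune complexes and signal through an immunoreceptor tyrosine-based activation motif (ITAM) carried by the Fcer1g chain, which is phosphorylated by Src-family kinases and then recruits the kinase Syk. Fcgr2b carries an inhibitory motif (ITIM) in its own tail and recruits phosphatases, chiefly the lipid phosphatase encoded by Inpp5d. The level of activating relative to inhibitory receptors on a macrophage is regarded as setting its threshold for phagocytosis and cytokine release on contact with antibody-coated particles.

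Fcgr2b, Fcgr4, Fcgr3 and Fcer1g lie on chromosome 1 (GRCm38), at chr1:170958617-170976547 (minus strand), chr1:171018920-171029761 (plus strand), chr1:171051174-171064935 (minus strand) and chr1:171229572-171234365 (minus strand). Fcgr1 lies apart, at chr3:96282909-96293969 on the minus strand. Their merged exons span 2589 bases for Fcgr1, 1736 for Fcgr3, 1256 for Fcgr4, 5790 for Fcgr2b and 874 for Fcer1g.

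Promoter windows for all 5 genes were found in RefSeq (GRCm38.p6). The 250 bases before the annotated start are shown for the 3 activating receptors because LPS moved these genes in different directions. In capitals are matches to a gamma-activated site (TTCNNNGAA), to a pair of interferon response half-sites (GAAANNGAAA, bound by IRF proteins) and to the PU.1 core (GAGGAA or its reverse complement), each searched on either strand. The windows are Fcgr1, chr3:96293970-96294219 (minus strand), Fcgr4, chr1:171018676-171018925 (plus strand), and Fcgr3, chr1:171059395-171059644 (minus strand, from a RefSeq start that lies within the longer annotated gene).
Fcgr1: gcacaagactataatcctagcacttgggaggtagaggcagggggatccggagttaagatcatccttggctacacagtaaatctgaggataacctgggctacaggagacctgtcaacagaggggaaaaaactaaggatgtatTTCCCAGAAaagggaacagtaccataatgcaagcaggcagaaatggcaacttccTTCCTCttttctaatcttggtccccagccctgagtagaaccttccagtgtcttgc
Fcgr4: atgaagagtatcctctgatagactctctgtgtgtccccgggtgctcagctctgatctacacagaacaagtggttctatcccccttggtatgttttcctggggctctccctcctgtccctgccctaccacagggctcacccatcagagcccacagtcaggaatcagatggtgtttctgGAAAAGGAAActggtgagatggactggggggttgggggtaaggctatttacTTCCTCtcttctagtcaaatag
Fcgr3: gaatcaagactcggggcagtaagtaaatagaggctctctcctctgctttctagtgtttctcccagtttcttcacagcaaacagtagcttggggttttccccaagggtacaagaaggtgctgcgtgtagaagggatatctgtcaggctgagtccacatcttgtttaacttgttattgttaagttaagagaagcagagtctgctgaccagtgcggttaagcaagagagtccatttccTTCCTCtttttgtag
The gamma-activated site letters of Fcgr1 lie 109 bases before the start, and the interferon half-site pair of Fcgr4 lies 73 bases before it. The PU.1 core lies 55 bases before the start in Fcgr1, 22 in Fcgr4 and 15 in Fcgr3. A kappaB match, left in lower case, was found 152 bases before the start of Fcgr4 and 161 bases before that of Fcgr3. RefSeq gives Fcgr3 another start, 9 bases upstream, with the same matches. Of 32851 promoter windows, searched likewise over the 250 bases before each start, 7.02% held the gamma-activated site letters. The half-site pair was in 2.98%, the PU.1 core in 23.3% and a kappaB match in 7.25%. None of these letters occurred in the windows of Fcgr2b and Fcer1g. A match is a description of letters, and binding was not measured.

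Fcgr2b and Fcgr3 are near relatives, and reads could in part be shared between them. Their longest coding sequences were 79.7% identical over 793 aligned bases. The longest identical stretch, 129 bases, occupies coding positions 278 to 406 of Fcgr2b and 263 to 391 of Fcgr3. It is shown because a read pair lying wholly within it cannot be assigned to either gene.
Fcgr2b and Fcgr3: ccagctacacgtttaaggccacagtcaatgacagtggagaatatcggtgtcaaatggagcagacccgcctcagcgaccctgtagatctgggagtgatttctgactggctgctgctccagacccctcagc
Of the windows of 100 bases in the coding transcripts of Fcgr3, 2.70% also occurred in Fcgr2b, and for windows of 50 bases the share was 10.2%. Of the 50-base windows of Fcgr2b, 4.48% occurred in Fcgr3 and 6.72% in any other gene. Fcgr1, Fcgr4 and Fcer1g shared no window of either length with any other annotated gene. An antisense transcript, Gm38204, overlaps 155 exon bases of Fcgr2b and received 9 counts in all 20 libraries together. How the counting treated reads with several matches was not given in the sources used here. The effect of shared reads on the values of Fcgr2b and Fcgr3 was not tested.

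The cells carried macrophage genes, and markers of other cells were at or near the floor. All 13 microglia and macrophage markers passed the filter on low counts, with Cd68, a lysosomal glycoprotein of phagocytes, the most abundant at 974 CPM on average in young untreated cultures. Csf1r, the growth factor receptor of macrophages, averaged 854 CPM there. The markers of microglia in the brain were low: Tmem119 averaged 17.8 CPM, P2ry12 1.18 CPM and Cx3cr1 1.05 CPM. Of the 6 B cell markers, 4 had at most 3 counts in any library, among them Ms4a1, Igkc and Ighm. Among neutrophil and mast cell markers 7 of 8 stayed at or under that floor, as did 5 of 6 T and NK cell markers and 4 of 4 neuronal markers. Of the dendritic cell markers, Zbtb46 was the most abundant at 3.12 CPM in young untreated cultures, while Xcr1 and Clec9a did not exceed 3 counts. The fibroblast and endothelial, astrocyte and oligodendrocyte lists summed to at most 1.78 CPM in any library. The genes of the soluble ligands were likewise silent, with Ighg1, Ighg2b, Ighg3, Igkc, Crp and Apcs at 0 in every library and Ighg2c at 2 counts at most. In these bulk samples, fewer cells expressing a receptor and less receptor mRNA per cell cannot be told apart.

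Replicate 3 of the aged cultures stood apart from the other aged cultures in several measures. The summed level of the 13 microglia and macrophage markers was 3681 CPM in aged untreated replicate 3, against 2543 to 2764 CPM in the other 4 aged untreated cultures. After LPS it was 4221 CPM in aged replicate 3, against 2976 to 3219 CPM in the other 4. Aged LPS replicate 3 also held 3801 CPM of the 15 interferon-induced genes, against 1534 to 2247 CPM in the other aged LPS cultures. Among untreated cultures, young replicate 1 held the most interferon-induced RNA, 151 CPM, against 54.5 to 83.6 CPM in the other young untreated cultures. Calls of family members that change without these libraries are given with the value. The marker list itself was lower in aged cells: 5 of 13 markers were lower and 0 higher without LPS (median log2 fold change -0.44), and 6 were lower and 1 higher after LPS (median -0.38). Of all tested genes 11.5% were called without LPS, 7.81% lower, and 29.0% after LPS, 15.0% lower. Without aged LPS replicate 3 the marker counts after LPS were 8 lower and 0 higher, and without young untreated replicate 1 they were 6 and 0. LPS raised 3 and lowered 5 of them in young cells and raised 3 and lowered 4 in aged cells (median -0.15 at either age), shares near those of all tested genes, 64.6% and 54.4%, and the LPS responses differed between ages for 1 of 13, near the 6.39% of all tested genes. The part of this shift in the receptor values was not tested.

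Fcgr1 encodes the high-affinity IgG receptor (CD64). In young untreated cultures 1 to 5 it measured 79.8, 76.0, 76.7, 65.9 and 67.8 CPM. In young LPS cultures it measured 132, 125, 96.5, 85.5 and 102 CPM, so every young LPS culture lay above every young untreated culture. In aged untreated cultures it measured 56.3, 51.2, 66.3, 50.4 and 63.0 CPM, and in aged LPS cultures 46.5, 43.8, 82.7, 43.5 and 52.9 CPM. With replicate 3 aside, the aged cultures were lower with LPS than without it in each batch, while replicate 3 went the other way. In young cells LPS raised Fcgr1 1.47-fold (log2 fold change 0.56, 95% interval 0.26 to 0.86, adjusted p = 0.00177 by edgeR's quasi-likelihood test, higher in 5 of 5 batches). In aged cells the log2 fold change was -0.090 (interval -0.40 to 0.22, adjusted p = 0.638), and without aged LPS replicate 3 it was -0.30 (adjusted p = 0.0306). The difference between the responses, aged minus young, was -0.65 (interval -1.08 to -0.22, adjusted p = 0.0649). With the batch as a block this difference was -0.66 and passed (adjusted p = 0.0273), as it did by DESeq2 (adjusted p = 0.0235) and without aged LPS replicate 3 (-0.86, adjusted p = 0.00108), batch 3 (-0.86, adjusted p = 0.00458) or young LPS replicate 4 (-0.72, adjusted p = 0.0315). The difference had the same sign in 5 of 5 batches, and was nearest 0 in batch 3 (-0.011 on the log2 scale).

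After LPS, Fcgr1 was 2.00-fold lower in aged than in young cells (interval of the log2 fold change -1.31 to -0.69, adjusted p = 2.31e-05), without overlap between the groups. Without LPS the log2 fold change was -0.35 (interval -0.65 to -0.048, adjusted p = 0.128). Every aged untreated culture but replicate 3 lay below every young one, and the aged culture was the lower in 5 of 5 batches. The difference passed when the untreated groups were fitted alone (-0.34, adjusted p = 0.0129), without batch 3 (-0.39, adjusted p = 0.0419) and without aged LPS replicate 3 (-0.35, adjusted p = 0.0286). That replicate lies outside this comparison, and why the call changed without it was not tested.

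Fcgr3 encodes a low-affinity activating receptor for immune complexes (CD16). It measured 154, 145, 139.5, 100.2 and 120.3 CPM in young untreated cultures and 74.8, 76.6, 99.95, 68.6 and 77.3 CPM in aged untreated cultures. The groups did not overlap, although the highest aged culture, replicate 3, came within 1 CPM of the lowest young culture, replicate 4. It measured 69.5, 59.7, 53.2, 42.4 and 52.3 CPM in young LPS cultures and 26.5, 36.4, 54.4, 31.9 and 32.5 CPM in aged LPS cultures. Every LPS culture lay below every untreated culture of the same age. LPS lowered Fcgr3 2.38-fold in young cells (log2 fold change -1.25, interval -1.58 to -0.93, adjusted p = 3.01e-07) and 2.19-fold in aged cells (-1.13, interval -1.46 to -0.80, adjusted p = 3.09e-06), lower in 5 of 5 batches at either age. The difference between these responses was 0.13 (interval -0.34 to 0.59, adjusted p = 0.837), and its sign turned without aged LPS replicate 3 (-0.069) or batch 3 (-0.011). Aged cells held 1.66-fold less Fcgr3 than young cells without LPS (log2 fold change -0.73, interval -1.05 to -0.41, adjusted p = 0.00325, lower in 5 of 5 batches). This call was lost without batch 2 (-0.68, adjusted p = 0.0508). After LPS aged cells held 1.52-fold less (-0.60, interval -0.94 to -0.27, adjusted p = 0.00733, lower in 4 of 5 batches), and this was lost without batch 1 (-0.41, adjusted p = 0.0726) or batch 2 (-0.58, adjusted p = 0.0576).

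Fcgr4 encodes the activating receptor of intermediate affinity for IgG2a and IgG2b. It measured 10.6, 9.08, 10.9, 5.74 and 4.39 CPM in young untreated cultures and 46.7, 57.8, 44.6, 25.9 and 40.4 CPM in young LPS cultures. In aged cells it measured 3.36, 4.10, 8.22, 4.45 and 3.86 CPM without LPS and 14.6, 12.2, 26.6, 15.6 and 17.1 CPM with LPS. Every LPS culture exceeded every untreated culture of the same age, and among untreated cultures the young replicates 4 and 5 reached down into the aged range. LPS raised Fcgr4 5.27-fold in young cells (log2 fold change 2.40, interval 1.87 to 2.93, adjusted p = 2.64e-08) and 3.56-fold in aged cells (1.83, interval 1.25 to 2.41, adjusted p = 7.86e-06). The difference between the responses was -0.57 (interval -1.36 to 0.22, adjusted p = 0.466). After LPS, Fcgr4 was 2.49-fold lower in aged cells (-1.32, interval -1.82 to -0.82, adjusted p = 0.000249, lower in 5 of 5 batches), with aged replicate 3 just above young replicate 4. Without LPS the log2 fold change of aged against young was -0.75 (interval -1.36 to -0.14, adjusted p = 0.105), and with the batch as a block it was -0.74 (adjusted p = 0.0440, lower in 5 of 5 batches). It also passed without aged untreated replicate 3 (-1.04, adjusted p = 0.0250), batch 3 (-0.91, adjusted p = 0.0484) or young untreated replicate 5 (-0.91, adjusted p = 0.0435).

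**Figure D1:**
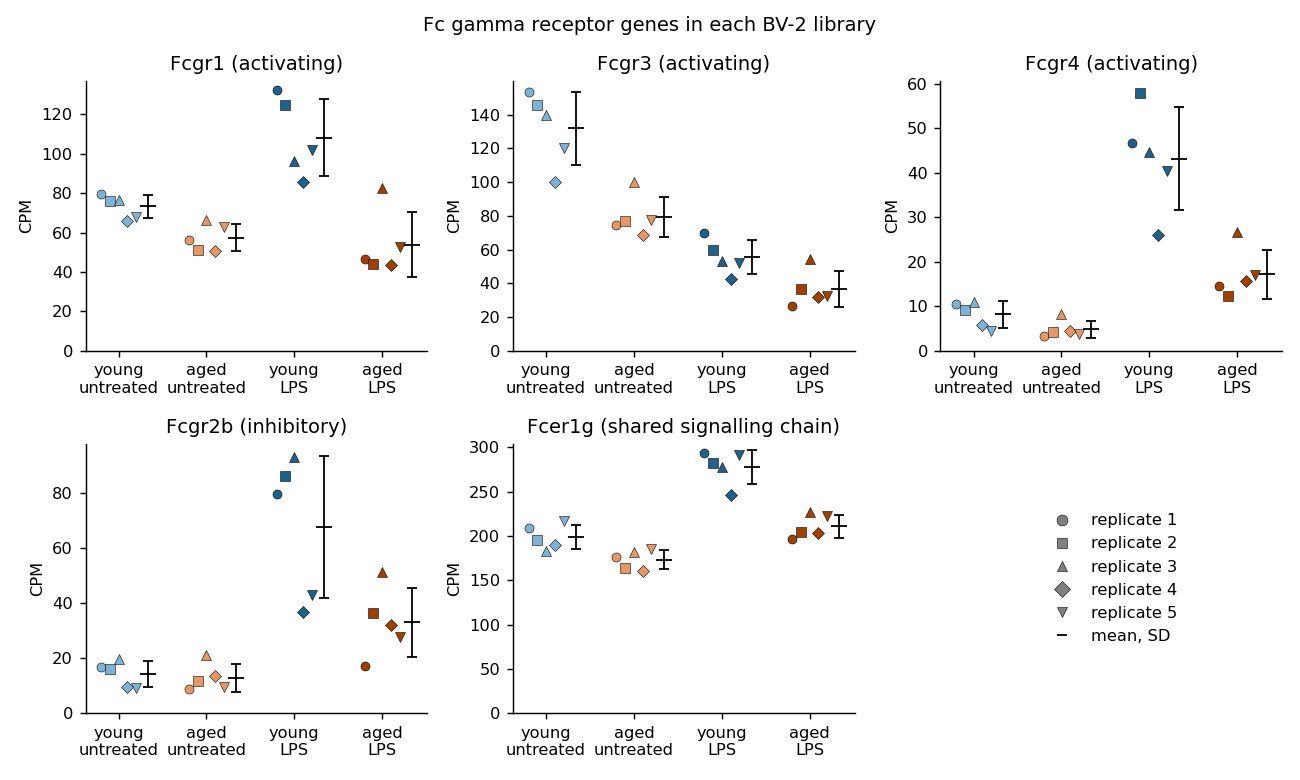
CPM (TMM-scaled, linear axis from 0) of each family member in each of 20 BV-2 libraries, grouped by age and LPS, with 1 symbol per replicate number and a bar for the mean and SD of 5 cultures. Fcgr3 falls with LPS from a mean of 132 to 55.4 CPM in young cells while Fcgr4 rises from 8.14 to 43.1 CPM, and the aged LPS mean lies below the young LPS mean for all 5 genes, with replicate 3 the highest aged LPS culture.

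Fcgr2b encodes the inhibitory receptor (CD32B), with an ITIM that opposes the activating receptors. It measured 16.8, 16.0, 19.9, 9.49 and 9.39 CPM in young untreated cultures and 79.5, 86.2, 93.0, 36.8 and 43.1 CPM in young LPS cultures. In aged cells it measured 8.80, 11.6, 21.3, 13.6 and 9.52 CPM without LPS and 17.3, 36.5, 51.5, 32.1 and 27.7 CPM with LPS. Young replicates 4 and 5 were low with and without LPS, so the SD was 32.8% of the mean in the untreated and 38.2% in the LPS group. LPS raised Fcgr2b 4.70-fold in young cells (log2 fold change 2.23, interval 1.61 to 2.86, adjusted p = 9.75e-07) without overlap between groups. In aged cells it rose 2.53-fold (1.34, interval 0.70 to 1.97, adjusted p = 0.000818), higher in 5 of 5 batches although the groups overlapped, since aged LPS replicate 1 was below aged untreated replicate 3. The difference between the responses was -0.90 (interval -1.79 to -0.0084, adjusted p = 0.252), with the same sign in 5 of 5 batches. After LPS, Fcgr2b was 2.05-fold lower in aged cells (-1.03, interval -1.62 to -0.44, adjusted p = 0.00853, lower in 5 of 5 batches). This call was lost without batch 1 (-0.80, adjusted p = 0.0505) or batch 2 (-0.97, adjusted p = 0.0667). Without LPS the difference between ages was -0.14 (interval -0.80 to 0.53, adjusted p = 0.845), and it changed sign when young untreated replicate 3 (0.014) or batch 1 (0.034) was left out.

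Fcer1g, the common signalling chain, was the steadiest of the 5 genes, with an SD of 6.22% to 6.94% of the mean in the 4 groups. It measured 209, 196, 183, 190.2 and 217 CPM in young untreated cultures and 294, 282, 278, 246 and 291 CPM in young LPS cultures. In aged cells it measured 176, 164, 182, 160.1 and 185 CPM without LPS and 197, 205, 227, 204 and 223 CPM with LPS. At either age every LPS culture lay above every untreated culture, and after LPS every young culture lay above every aged culture. LPS raised Fcer1g 1.40-fold in young cells (log2 fold change 0.48, interval 0.36 to 0.61, adjusted p = 2.39e-07) and 1.22-fold in aged cells (0.28, interval 0.16 to 0.41, adjusted p = 0.000356). Scaled by library size alone, the rise in aged cells was 0.12 and did not pass (adjusted p = 0.0634). That scaling set the median of all tested genes at -0.16 in the comparison, where the TMM scaling set it at 0.00051. The difference between the responses was -0.20 (interval -0.38 to -0.026, adjusted p = 0.181). After LPS, Fcer1g was 1.32-fold lower in aged cells (-0.40, interval -0.52 to -0.27, adjusted p = 2.72e-05). Without LPS it was 1.15-fold lower (-0.20, interval -0.32 to -0.074, adjusted p = 0.0336), with overlapping groups. This last call was fragile: it was lost with all genes kept (adjusted p = 0.0594), without batch 1, 2, 4 or 5, and without young untreated replicates 1, 2 or 5 or aged untreated replicates 2 or 4, where the log2 fold change ran from -0.20 to -0.17 and the adjusted p from 0.0585 to 0.177.

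Counted by comparison over the whole family, calls between ages were more numerous after LPS than before it. Without LPS, 2 of 5 genes were lower in aged cells (Fcgr3 and Fcer1g) and none higher, where 11.5% of 12799 tested genes passed, 3.71% higher and 7.81% lower. Of the family, Fcgr3 alone had groups without overlap there, against 10.4% of tested genes. With the batch as a block 3 of 5 passed, Fcgr4 being added. In young cells LPS moved 5 of 5, with Fcgr1, Fcgr2b, Fcgr4 and Fcer1g higher and Fcgr3 lower, each without overlap, where 64.6% of tested genes passed, 31.2% higher and 33.5% lower, and 49.1% did not overlap. In aged cells LPS moved 4 of 5, with 3 higher and 1 lower (5 of 5 without aged LPS replicate 3, Fcgr1 then being lower), against 54.4% of tested genes, 27.5% higher and 26.9% lower. Of these, Fcgr3, Fcgr4 and Fcer1g did not overlap, against 40.1% of tested genes. After LPS 5 of 5 were lower in aged cells, where 29.0% of tested genes passed, 14.0% higher and 15.0% lower. Fcgr1 and Fcer1g did not overlap in that comparison, against 14.8% of tested genes. For the difference between the LPS responses edgeR called 0 of 5, where 6.39% of tested genes passed, although 3 of 5 had an unadjusted p below 0.05. DESeq2, the fit with the batch as a block and the fit without aged LPS replicate 3 each called Fcgr1. The difference was negative in 5 of 5 batches for Fcgr1, Fcgr2b, Fcgr4 and Fcer1g, and in 2 of 5 for Fcgr3. The comparisons share groups: the young LPS cultures enter the young LPS response as well as the comparison of ages under LPS.

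**Figure D2:**
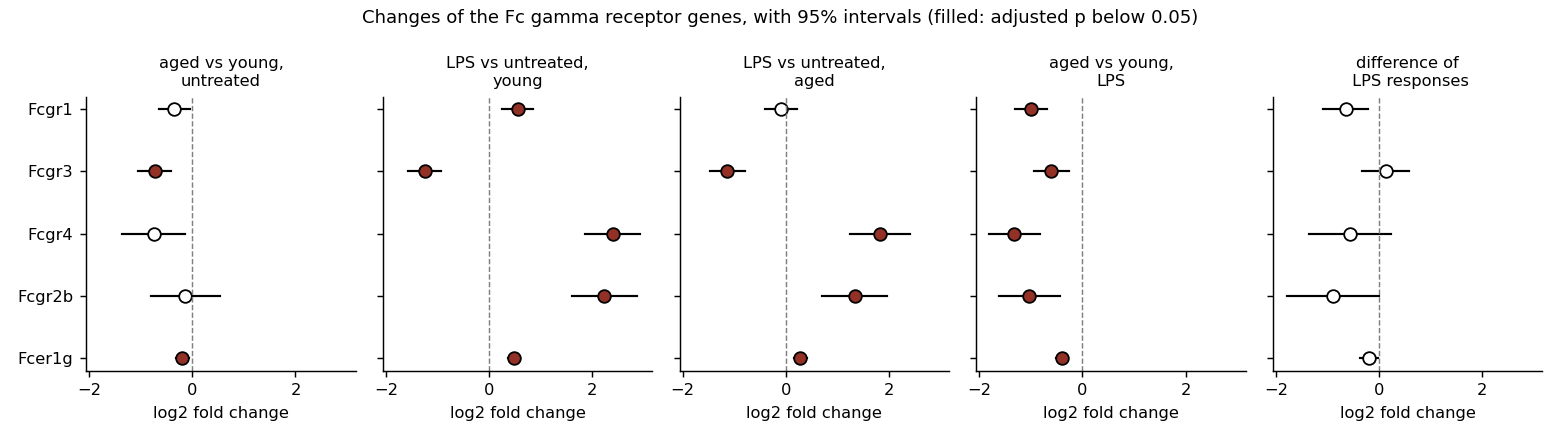
Log2 fold change (x axis) of each family member in the 4 pairwise comparisons and in the difference of LPS responses (aged minus young), with 95% intervals from the edgeR fit of 20 libraries. Filled points passed an adjusted p of 0.05, as 5 of 5 did for aged against young under LPS and 0 of 5 did for the difference of responses.

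Levels of different genes were compared per kilobase of merged exons. In young untreated cells Fcer1g was highest (228 ± 15.8 CPM per kilobase, SD, n = 5), followed by Fcgr3 (75.9 ± 12.4), Fcgr1 (28.3 ± 2.34), Fcgr4 (6.48 ± 2.33) and Fcgr2b (2.48 ± 0.811), with no overlap between neighbours in this order. Aged untreated cells had the same order, at 199 ± 12.6, 45.8 ± 6.89, 22.2 ± 2.72, 3.82 ± 1.55 and 2.24 ± 0.871 CPM per kilobase, but the libraries of Fcgr4 and Fcgr2b overlapped. After LPS the order among receptors dissolved. In young LPS cells Fcgr1 (41.8 ± 7.59 CPM per kilobase), Fcgr4 (34.3 ± 9.22) and Fcgr3 (31.9 ± 5.78) overlapped as neighbours, with Fcgr2b below them at 11.7 ± 4.47 and Fcer1g above at 318 ± 21.9. In aged LPS cells Fcgr3 (20.9 ± 6.14), Fcgr1 (20.8 ± 6.39) and Fcgr4 (13.7 ± 4.40) overlapped as neighbours, Fcgr2b stood at 5.70 ± 2.16 and Fcer1g at 242 ± 15.0. With the length of the longest transcript in place of merged exons, Fcgr4 and Fcgr2b overlapped in all 4 groups (3.50 to 8.70 and 2.65 to 5.62 CPM per kilobase in young untreated cells), and in young LPS cells the mean of Fcgr3 (41.2) came above that of Fcgr4 (34.3).

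The make-up of the receptor mRNA pool shifted with LPS. The 4 ligand-binding receptors summed to 113 ± 17.4 CPM per kilobase in young untreated and 120 ± 24.6 in young LPS cultures with overlapping ranges, and to 74.0 ± 11.3 and 61.1 ± 18.3 in aged cultures without and with LPS. In aged cells the sum was lower with LPS in 5 of 5 batches, although batch 3 hardly moved (93.4 without and 93.3 with LPS). The ranges overlapped only through replicate 3, the other 4 LPS cultures lying between 47.9 and 57.5 and the untreated cultures between 64.9 and 93.4. In young cells the sum was lower with LPS in 2 of 5 batches. Fcgr3 was 67.0% ± 1.78 of the sum in young untreated cells and 26.9% ± 2.03 in young LPS cells. In aged cells its share was 61.9% ± 1.30 without LPS and 34.3% ± 2.75 with LPS. The share of Fcgr4 went from 5.60% ± 1.40 to 28.4% ± 3.05 in young cells and from 5.05% ± 1.25 to 22.4% ± 2.51 in aged cells. That of Fcgr2b went from 2.15% ± 0.461 to 9.57% ± 2.61 and from 2.98% ± 0.791 to 9.25% ± 2.08. That of Fcgr1 went from 25.2% ± 2.05 to 35.2% ± 2.98 in young cells and from 30.1% ± 2.26 to 34.1% ± 2.6 in aged cells. With the longest transcript the share of Fcgr3 went from 71.5% to 30.4% in young and from 66.6% to 38.2% in aged cells, and that of Fcgr2b from 2.91% to 13.7% and from 4.06% to 13.0%. These shares describe mRNA, and surface protein was not analysed here.

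**Figure D3:**
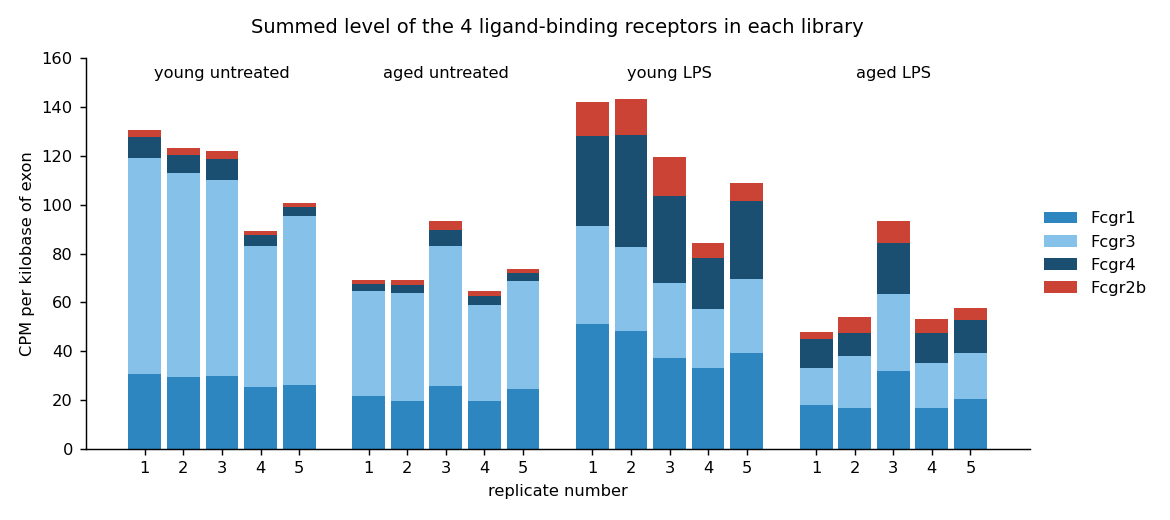
Stacked CPM per kilobase of merged exons (linear axis from 0) of Fcgr1, Fcgr3, Fcgr4 and Fcgr2b in each library, 1 bar per replicate number in each of 4 groups. The Fcgr3 segment is 67.0% of the bar on average in young untreated cells and 26.9% in young LPS cells, and aged LPS replicate 3 is taller than the other aged LPS bars.

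The ratio of each activating receptor to Fcgr2b, per kilobase, fell with LPS for Fcgr1 and Fcgr3, and for Fcgr4 its direction differed between batches. These ratios were described without a test. Fcgr3 to Fcgr2b was 30.4, 30.2, 23.4, 35.2 and 42.7 in young untreated cultures and 2.92, 2.31, 1.91, 3.84 and 4.05 in young LPS cultures. In aged cultures it was 28.4, 22.0, 15.6, 16.9 and 27.1 without LPS and 5.10, 3.32, 3.52, 3.32 and 3.91 with LPS. The LPS and untreated ranges were far apart at either age. Fcgr1 to Fcgr2b ran from 8.61 to 16.2 in young untreated, 2.32 to 5.28 in young LPS, 6.94 to 14.8 in aged untreated and 2.68 to 5.99 in aged LPS cultures. It too separated LPS from untreated cultures, while the ages overlapped. Fcgr4 to Fcgr2b ran from 2.16 to 2.89 in young untreated and 1.51 to 1.87 in aged untreated cultures, without overlap. After LPS it ran from 2.21 to 4.32 in young and 1.54 to 3.88 in aged cultures, with overlap. With LPS it fell in young batches 1 (2.89 to 2.71) and 3 (2.53 to 2.21) and in aged batch 2 (1.625 to 1.54), and rose in the other batches. With the length of the longest transcript in place of merged exons the ratio means were lower, since the Fcgr2b exons in use shrink to 3544 bases, but that factor is the same in every library.

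**Figure D4:**
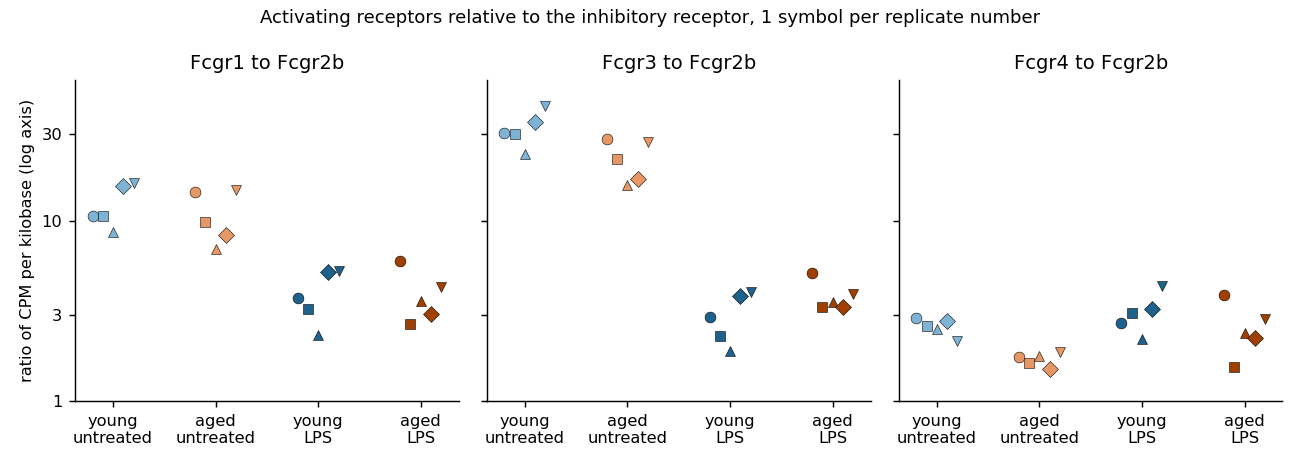
Ratio of Fcgr1, Fcgr3 and Fcgr4 to Fcgr2b in CPM per kilobase (log axis) in each library, with 1 symbol per replicate number in each of 4 groups. Fcgr3 to Fcgr2b is 23.4 or more in young untreated cultures and 5.10 or less in every LPS culture.

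The wider pathway was followed through lists of named genes. Genes named first in a list are those with the largest changes among called genes averaging at least 1 log2 CPM, so that less abundant genes can have larger changes. That average is over all 20 libraries, so a gene raised by LPS can pass it while low in untreated cultures. Directly downstream, the kinases Syk, Src and Lyn rose with LPS and were lower in aged than in young cells after LPS, while Fyn, of the Src family, had 0.12 with LPS in young cells (adjusted p = 0.137), rose by 0.32 in aged cells and was higher in aged cells after LPS (0.29, adjusted p = 0.00326). Syk went from 127 ± 12.7 CPM (SD, n = 5) in young untreated to 634 ± 75.2 in young LPS cells (log2 fold change 2.32, adjusted p = 1.35e-15) and from 106 ± 4.32 to 426 ± 62.1 in aged cells (2.01, adjusted p = 2.53e-14). After LPS Syk was 1.49-fold lower in aged cells (-0.57, adjusted p = 3.66e-05), and without LPS the difference was -0.26 (adjusted p = 0.0629). Src, which names the kinase family, rose by 4.17 and 3.81 with LPS and was lower in aged cells without LPS (-1.15, adjusted p = 0.00567) and with it (-1.51, adjusted p = 1.05e-06). Lyn, the kinase that phosphorylates ITAM and ITIM alike, rose by 0.88 in young and 0.76 in aged cells and was lower in aged cells by a log2 fold change of -0.22 without LPS (adjusted p = 0.00726) and -0.33 with it (adjusted p = 3.15e-05). Fgr was too low to test, with at most 13 counts in a library.

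Of 34 genes for activating signalling 33 were tested. Without LPS 10 were lower in aged cells and 0 higher (median log2 fold change -0.12, against -0.014 for all tested genes), beside 11.5% of all tested genes called and 7.81% lower, and with library sizes alone 6 were lower. LPS raised 17 and lowered 7 in young cells (median 0.28, against -0.011) and raised 20 and lowered 7 in aged cells (median 0.32, against 0.00051), beside 64.6% and 54.4% of all tested genes called. Plcg1, a phospholipase C of the pathway, fell with LPS (1.17e-15 and 2.79e-13 as adjusted p in young and aged cells), to 29.0 from 75.4 CPM and to 39.8 from 80.0 CPM, as did Card9, an adaptor to NF-kappaB (-0.88, adjusted p = 3.84e-07 and -0.63, adjusted p = 4.22e-05). After LPS 13 were lower and 3 higher in aged cells (median -0.11, against 0.0085), beside 29.0% of all tested genes called and 15.0% lower, Plcg1 (0.46) and the kinase Fyn (0.29) being higher. The LPS responses differed between ages for 6 of 33, or 9 without aged LPS replicate 3, beside 6.39% of all tested genes: Malt1, a protease of the Card9 complex (-0.92, adjusted p = 0.0114), and Prkcd, a protein kinase C (-0.42, adjusted p = 0.0148), had the most negative differences, and Mapk3 (0.40, adjusted p = 0.0285) and Plcg1 (0.38, adjusted p = 0.00381) the positive ones. The call of Mapk3 was lost 5 times with each of the 20 libraries left out in turn. Scaled by library size alone the calls were 16 higher and 13 lower with LPS in young cells, 16 and 11 in aged cells, and 8 higher and 12 lower for aged against young under LPS. Over all tested genes that scaling gave 2407 higher and 6401 lower calls for LPS in young cells, with a median of -0.23.

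Phosphatases recruited by ITIM receptors moved in different directions. Inpp5d, the chief partner of Fcgr2b, fell with LPS from 278 ± 24.2 to 86.6 ± 15.0 CPM in young cells (log2 fold change -1.68, adjusted p = 1.04e-13) and from 230 ± 8.33 to 80.8 ± 4.29 CPM in aged cells (-1.51, adjusted p = 1.24e-12). Aged untreated cells held 1.21-fold less than young ones (-0.28, adjusted p = 0.0329), a call lost 8 times with each of the 20 libraries left out in turn, and after LPS the difference was -0.10 (adjusted p = 0.423). Ptpn6, a protein phosphatase recruited by ITIM receptors, fell by 0.37 and 0.38 with LPS (adjusted p = 0.0260 and 0.0264), with no call between ages (-0.022 and -0.033, adjusted p = 0.950 and 0.891). Its LPS call was lost 3 times at either age with each of the 20 libraries left out in turn. Ptpn11, another such phosphatase, named after its values were seen, rose by 0.47 and 0.36 with LPS (adjusted p = 8.25e-08 and 5.58e-06) and was lower in aged cells after LPS (-0.18, adjusted p = 0.0149). Among ITIM receptors, Pirb, a receptor of immune cells for MHC class I, rose 6.14-fold in young cells (from 1.15 to 7.10 CPM, adjusted p = 9.09e-10) and 4.88-fold in aged cells (adjusted p = 1.17e-07), and was 1.99-fold lower in aged cells after LPS (adjusted p = 0.000598). Pirb shares long stretches with the Pira genes, so its counts are uncertain. Pilra rose by 4.38 and 4.46 on the log2 scale, Lilr4b, which has a close copy in Lilrb4a, by 3.46 in young cells and Siglece by 3.93 in aged cells, while the sialic acid receptor Cd33 fell by 1.03 and 0.94.

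Of the 23 tested phosphatases, adaptors and ITIM receptors, 7 were lower in aged cells without LPS and 0 higher (median -0.13). Among genes averaging at least 1 log2 CPM these were led by Siglece (-1.37, adjusted p = 0.0210) and Cd33 (-0.46, adjusted p = 0.0315). Their calls were lost 2 and 7 times with each of the 20 libraries left out in turn. Siglece was low here, averaging 1.19 CPM in young and 0.455 CPM in aged untreated cultures. Of all tested genes 11.5% were called in this comparison, 7.81% lower. LPS raised 10 and lowered 6 in young cells (median 0.16) and raised 10 and lowered 7 in aged cells (median 0.17), beside 64.6% and 54.4% of all tested genes called. Scaled by library size alone, 9 rose and 9 fell in young cells, with the median at -0.059. After LPS 11 were lower and 0 higher in aged cells (median -0.21; 6 and 0 with library sizes alone), beside 29.0% of all tested genes called and 15.0% lower, led by Clec12a, an inhibitory lectin (-1.08, adjusted p = 0.00562), and Pilra (-1.02, adjusted p = 0.000425). The LPS response differed between ages for 1 of them, where 6.39% of all tested genes were called, the phosphatase Ptprc (CD45, -0.39, adjusted p = 0.00409), and for 2 without aged LPS replicate 3 or with the batch as a block.

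Of other receptors that use the Fcer1g chain, Clec4e and Clec4d rose with LPS at either age. Clec4e, a lectin that senses microbial glycolipids and signals through the Fcer1g chain, rose with LPS from 19.6 to 567 CPM in young cells (log2 fold change 4.86, SE 0.19, adjusted p = 1.27e-15) and from 16.9 to 400 CPM in aged cells (4.56, SE 0.19, adjusted p = 6.18e-15). Clec4d, its partner, rose by 2.50 and 2.27. Both were lower in aged cells after LPS (-0.51, adjusted p = 0.0193 and -0.45, adjusted p = 0.0453), calls that were lost 3 and 12 times with each of the 20 libraries left out in turn. Tyrobp, the ITAM adaptor that serves other microglial receptors such as Trem2, was not moved past the threshold by LPS (-0.11, adjusted p = 0.502 in young and -0.17, adjusted p = 0.301 in aged cells). It was lower in aged cells after LPS (-0.44, adjusted p = 0.0147), with -0.38 without LPS (adjusted p = 0.0643). Of the 5 tested genes of this list, edgeR called 0 between ages without LPS, where 1 had an unadjusted p below 0.05 and DESeq2, the fit with the batch as a block and the fit without aged LPS replicate 3 each called 1. LPS raised 3 in young and 2 in aged cells (medians 0.75 and 0.34), shares near the 64.6% and 54.4% of all tested genes called. After LPS 4 were lower in aged cells (median -0.45), or 3 by DESeq2 or with library sizes alone, beside 29.0% of all tested genes called and 15.0% lower. Scaled by library size alone, the calls with LPS were 3 higher and 2 lower in young cells and 2 higher and 1 lower in aged cells. For the difference of LPS responses 0 of 5 passed by edgeR or DESeq2, and 0 had an unadjusted p below 0.05.

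Among 13 other Fc receptors only Fcgrt, Trim21, Fcrl1 and Fcrlb were expressed highly enough to test, and Fcer1a, Ms4a2, Fcer2a, Fcmr, Fcamr, Pigr, Fcrl5 and Fcrl6 were at 0 in every library. Fcgrt, the neonatal Fc receptor that rescues IgG from degradation, was low and lower in aged cells, 6.01 ± 1.92 against 3.20 ± 0.963 CPM without LPS (log2 fold change -0.91, adjusted p = 0.0128) and 2.68 ± 0.661 against 1.34 ± 0.405 CPM with it (-0.98, adjusted p = 0.0167). LPS lowered it 2.26-fold in young and 2.37-fold in aged cells (adjusted p = 0.000211 and 0.000747). Trim21, a cytosolic receptor for antibody on internalised particles, rose by 2.53 in young and 2.18 in aged cells and was lower in aged cells after LPS (-0.86, adjusted p = 7.21e-05). Fcrl1, a receptor-like protein best known from B cells, rose by 0.25 in young cells (adjusted p = 0.0225), a call lost 3 times with each of the 20 libraries left out in turn. Of the 4 tested, 1 was lower in aged cells without LPS (median -0.64; 2 by DESeq2 or without aged LPS replicate 3) and 3 were lower after LPS (median -0.86). LPS raised 3 and lowered 1 in young cells (2 and 1 without young untreated replicate 1) and raised 2 and lowered 1 in aged cells (medians 0.87 and 0.78). Of all tested genes 11.5% and 29.0% were called between ages without and with LPS, and 64.6% and 54.4% with LPS in young and aged cells. For the difference of LPS responses 0 of 4 passed by edgeR or DESeq2, and 0 had an unadjusted p below 0.05.

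The machinery that closes the phagocytic cup was followed through 32 genes. Of 31 tested actin and engulfment genes LPS raised 17 and lowered 5 in young cells (median 0.20) and as many in aged cells (median 0.14), beside 64.6% and 54.4% of all tested genes called. Library size alone gave 13 higher and 12 lower in young and 12 and 8 in aged cells. Vasp, which promotes actin filament growth, rose by 1.80 in young and 1.55 in aged cells, and Marcks, a membrane protein that binds actin, by 1.51 and 1.33. Pld1, a phospholipase D, fell by 1.06 and 0.68, the kinase Limk1 by 0.57 in young cells and Dock2, an activator of Rac, by 0.29 in aged cells. Without LPS 4 of 31 were lower in aged cells and 0 higher (median -0.095), where 11.5% of all tested genes passed and 7.81% were lower, led by Marcks (-0.70, adjusted p = 0.000542) and Pld2 (-0.30, adjusted p = 0.0116), and with the batch as a block 10 were lower. After LPS 16 were lower and 1 higher in aged cells (median -0.18), beside 29.0% of all tested genes called and 15.0% lower, or 11 and 3 with library sizes alone (median -0.10), led by Marcks (-0.89, adjusted p = 5.31e-06) and Vasp (-0.44, adjusted p = 2.21e-05), with Limk1 higher (0.36, adjusted p = 0.00183). For the difference of LPS responses edgeR called 0 of 31, with 8 at an unadjusted p below 0.05 and 1 called by DESeq2 and by the fit with the batch as a block.

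The list of transcription factors of myeloid and interferon-induced genes held 13 genes, of which 10 rose with LPS at either age. Spi1 (PU.1), the master regulator of myeloid genes, rose from 278 ± 5.42 to 654 ± 38.8 CPM in young cells (log2 fold change 1.23, adjusted p = 4.90e-15) and from 246 ± 18.7 to 541 ± 27.4 CPM in aged cells (1.14, adjusted p = 3.69e-14). It was lower in aged cells without LPS (-0.18, adjusted p = 0.0312) and with it (-0.27, adjusted p = 0.000402). Irf8 fell with LPS, by 0.33 in young and 0.20 in aged cells (adjusted p = 5.94e-05 and 0.00872), and was lower in aged cells without LPS (-0.26, adjusted p = 0.00614). Cebpa fell by 1.94 and 1.30 and Stat6 by 0.34 and 0.26. In all 13 of 13 moved with LPS, 10 higher and 3 lower at either age (medians 1.61 and 1.24), beside 64.6% and 54.4% of all tested genes called, with Irf7 (6.39 and 7.13) first in young and aged cells, followed by Stat2 in young cells (3.44) and Irf9 in aged cells (6.08-fold). Between ages 5 were lower without LPS (median -0.24), led by Irf7 (-1.89, adjusted p = 0.0308) and Cebpa (-0.58, adjusted p = 0.00104). Irf7 was low there, averaging 2.47 CPM in young and 0.668 CPM in aged untreated cultures. After LPS 10 were lower in aged cells (median -0.30), led by Stat2 (-1.34, adjusted p = 1.68e-05) and Irf7 (-1.15, adjusted p = 0.000230). Of all tested genes 11.5% were called between ages without LPS, 7.81% lower, and 29.0% after LPS, 15.0% lower. Without young untreated replicate 1 the count without LPS was 3. With each of the 20 libraries left out in turn, the age call without LPS was lost 7 times for Spi1 and 6 times for Irf7, and the difference of responses 12 times for Irf1. The LPS responses differed between ages for Stat2 (-1.23, adjusted p = 0.0155), Irf1 (-0.85, adjusted p = 0.0349) and Cebpa (0.63, adjusted p = 0.0146), among 4 of 13 past the threshold, beside 6.39% of all tested genes.

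The interferon-induced genes moved in the same comparisons. Their summed level was 54.5 to 151 CPM in young untreated and 35.9 to 45.2 CPM in aged untreated cultures, and 4990 to 8031 CPM in young LPS and 1534 to 3801 CPM in aged LPS cultures. LPS raised 15 of 15 at either age (medians 6.98 and 8.17, or 6.98 and 7.89 for ratios of group means with a mean under the floor of 3 counts per library set to that floor), with Cxcl10 (7.71) and Gbp2 (7.63) first in young cells among genes averaging at least 1 log2 CPM and Rsad2 (9.72) and Gbp2 (9.60) in aged cells, where 64.6% and 54.4% of all tested genes were called. After LPS 15 of 15 were lower in aged cells (median -1.52), beside 29.0% of all tested genes called and 15.0% lower, with Gbp2 (-1.91, adjusted p = 1.86e-06) and Ifit2 (-1.85, adjusted p = 1.48e-06) first by the same limit. Without LPS 8 of 15 were lower (median -2.68, or -2.61 for ratios of means with the floor, over the 13 genes above it in either group), with Rsad2 (-4.07, adjusted p = 0.000948) and Gbp2 (-3.88, adjusted p = 0.0241) first, beside 11.5% of all tested genes called and 7.81% lower. Without young untreated replicate 1 the count was 3, Gbp2 was not called (-3.40, adjusted p = 0.0786), and Rsad2 stood at -3.06 (adjusted p = 0.00135), an 8.34-fold in place of a 16.8-fold difference. Rsad2 ran from 3.64 to 43.7 CPM in young untreated and from 0.171 to 1.29 CPM in aged untreated cultures. In aged untreated cultures 5 of the 15 genes averaged less than the floor of 3 counts per library (0.178 to 0.264 CPM), Gbp2 among them at 0.0735 CPM, so their fitted changes against that group depend on the fit's prior count. The LPS responses of 2 of 15 differed between ages, beside 6.39% of all tested genes. These were Ifit2 (-1.30, adjusted p = 0.0246) and Oasl1 (-0.75, adjusted p = 0.0170), that of Ifit2 with an adjusted p of 0.0522 without young LPS replicate 2. The part of interferon-induced signalling in the receptor changes was not tested.

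**Figure D5:**
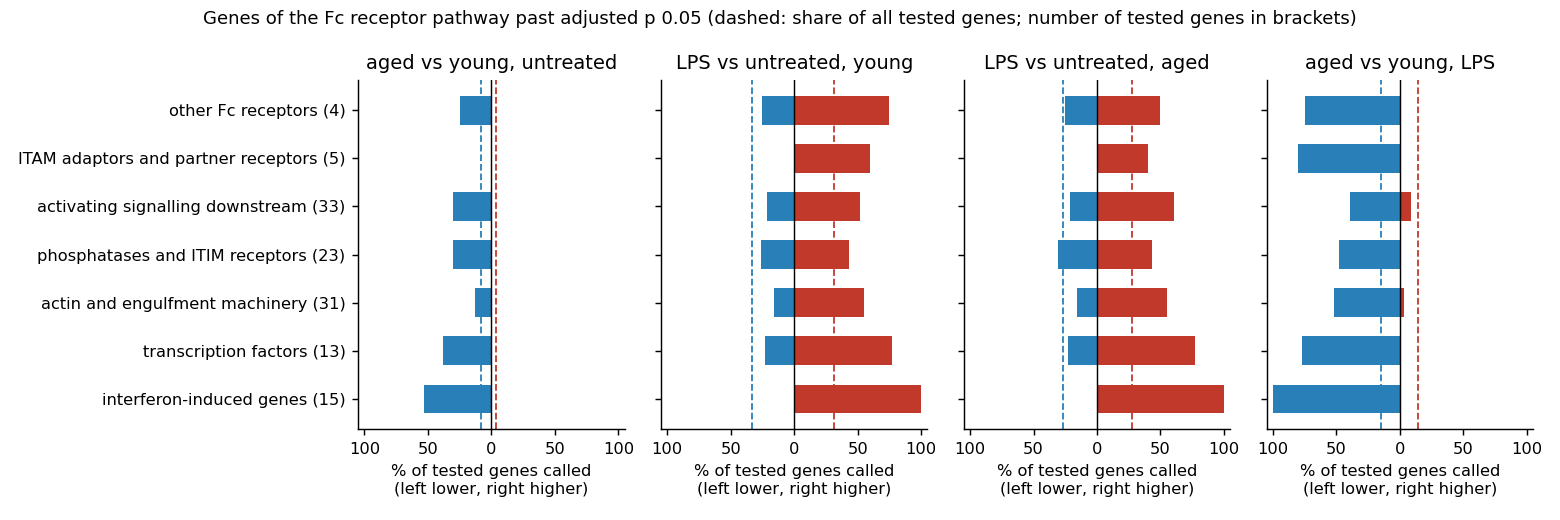
Share of tested genes (percent, x axis, lower to the left and higher to the right) that passed an adjusted p of 0.05 in 7 lists of Fc receptor pathway genes, in 4 comparisons, with dashed lines at the share among all 12799 tested genes. For aged against young under LPS the lower bars pass the dashed line at 15.0% in every list, from 13 of 33 activating signalling genes to 15 of 15 interferon-induced genes.

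Genes beside the family at its loci were followed within 100 kb. Of 61 such genes 23 were tested. Of these, edgeR called 0 between ages without LPS, where 3 had an unadjusted p below 0.05 and DESeq2 called 0. For the difference of LPS responses edgeR called 0, where 2 had an unadjusted p below 0.05, DESeq2 called 0 and the fit with the batch as a block called 1. After LPS 6 of 23 differed between ages, 4 higher and 2 lower in aged cells, a share near the 29.0% of all tested genes. LPS raised 6 and lowered 9 in young cells and raised 4 and lowered 9 in aged cells, shares of the 23 near those of all tested genes, 64.6% and 54.4%. With library sizes alone these were 5 and 12 in young and 3 and 11 in aged cells, and 4 higher and 1 lower between ages after LPS. Cfap126, a cilium gene 49.0 kb from Fcgr3, fell with LPS (-0.94, adjusted p = 0.000172 in young and -1.09, adjusted p = 0.000136 in aged cells), and Fcrlb, an Fc receptor-like gene 45.7 kb from Fcgr2b, rose (1.49, adjusted p = 0.000169 and 1.38, adjusted p = 0.00281). Adamts4, a protease gene 16.1 kb from Fcer1g, rose by 4.56 in young and 3.02 in aged cells (adjusted p = 5.24e-08 and 1.67e-05).

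Among 10883 well-expressed genes, the patterns most like each member over the 20 libraries were read from Pearson's r of log2 CPM, as a description without a test, since the libraries share the 4 groups. Fcgr1 was most like Irf2 (r = 0.951), Mpp1 (0.934) and Vwa5a (0.933). Fcgr3 was most like Hfe (0.986), the haemochromatosis protein, Capn5 (0.985) and Slc36a2 (0.979), which like Fcgr3 fell with LPS and with age: Hfe averaged 32.0 CPM in young untreated, 21.4 in aged untreated, 14.7 in young LPS and 9.23 in aged LPS cultures. Fcgr4 was most like Shisa5 (0.986), H2-D1 (0.984) and B2m (0.982), the last 2 encoding the chains of MHC class I, although H2-D1 shares sequence with other class I genes. Fcgr2b was most like the chemokine Ccl9 (0.973), St3gal5 (0.969) and the hyaluronan receptor Cd44 (0.968). Ccl9 averaged 13.6 CPM in young untreated, 12.2 in aged untreated, 164 in young LPS and 44.6 in aged LPS cultures. Fcer1g was most like Stard5 (0.960), Emp3 (0.959) and Exoc3l4 (0.956).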

How the data were processed

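The deposited table holds raw counts per gene, which the authors made with STAR 2.6.1d on GRCm38 and featureCounts 1.5.1 (FastQC 0.11.8), from stranded paired-end mRNA libraries; strand and multi-mapping settings were not given in the sources used here. No sample column was left out. Of 55487 identifiers, 55227 were found in GENCODE M21, which gave symbols and exon lengths. With edgeR 4.0.16 (R 4.3.3), genes with low counts were removed (filterByExpr), leaving 12799, counts were scaled by TMM, and the 4 groups were fitted in 1 quasi-likelihood model without covariates. P-values were adjusted over all 12799 genes (Benjamini-Hochberg, threshold 0.05). DESeq2 1.42.0 served as an alternative. In simulated counts for aged against young, untreated, edgeR recovered 182 of 199 genes changed 2-fold among 12636 tested, with 6 false calls. The simulated libraries were independent, with no LPS effect, no batch and no culture set apart. These counts therefore do not give the rates for the real cultures or for changes smaller than 2-fold.

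The 4 groups and the batch number came from the labels, and since the labels call the replicate number the batch, it was taken to pair cultures. Same-numbered libraries had a mean correlation of 0.146 over 30 pairs (from -0.214 to 0.394, 19 over 0.1). Between untreated and LPS cultures of the same age the correlations ran from 0.122 to 0.394. Between young and aged cultures they ran from -0.214 to 0.275, and all those of replicate 1 were negative. The number thus pairs young with aged cultures less clearly, which limits batch counts and the block for differences between ages. All 40 pairs of replicates differed by more than counting noise (chi-square per degree of freedom 2.43 to 27.0). The members and gene lists were chosen with earlier results of these data known, so no list counts as independent support. The text names the 5 family members, pathway genes (Syk, Lyn, Fgr, Inpp5d, Ptpn6, Tyrobp, Fcgrt, Pirb, Spi1 and Irf8), the 2 most changed genes of each list in each direction (mean of at least 1 log2 CPM), neighbours within 100 kb and the 3 genes most like each member. Lists were described by counts and medians and given no set test. Of the listed symbols, 1 had no identifier. Some genes that these rules would name are not reported here.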

Additional observations from a re-analysis of the deposited data

Results flagged for a closer look

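In 6 of 40 groups of 5 cultures examined, 1 culture stood away from the other 4 by more than Dixon's 95% limit. Chance gives about 1 in 20 for independent groups, but these were measures of the same 20 libraries, so the shares cannot be compared. All 6 came from replicate 3 of the aged cultures, untreated or with LPS. Fcgr1 was 82.71 CPM in aged LPS replicate 3, against 43.5 to 52.9 CPM in the others. Fcgr3 was 99.95 CPM and Fcgr4 8.22 CPM in aged untreated replicate 3, against at most 77.3 and 4.45 CPM. In the same libraries the summed microglia and macrophage markers were high, 3681 CPM untreated and 4221 CPM with LPS, while the summed interferon-induced genes were low without LPS, 35.9 CPM against 44.3 to 45.2 CPM. The labels give no reason, and what sets these cultures apart was not tested.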

How the results depend on the processing

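With 1 culture or 1 batch left out, 598 fold changes of family members kept their direction and side of the threshold, 14 lost the call, 9 gained it and 4 turned. Under other settings 162 kept them, 5 gained the call and 3 lost it. The cause of each change was not tested. Without 1 culture or batch the genes called ran from 548 to 1646 for aged against young untreated (1475 with all), 2156 to 3937 under LPS (3717) and 189 to 1069 for the difference of LPS responses (818), and with an adjusted p below 0.01 they were 622, 2333 and 328. For aged against young untreated the log2 fold changes ran from -0.41 to -0.30 for Fcgr1, -0.40 to 0.034 for Fcgr2b (0.014 without young untreated replicate 3), -0.83 to -0.65 for Fcgr3, -1.04 to -0.54 for Fcgr4 and -0.24 to -0.17 for Fcer1g. Under LPS they ran from -1.26 to -0.80 for Fcgr2b and -0.81 to -0.41 for Fcgr3, and for LPS in aged cells from -0.30 to -0.022 for Fcgr1. The difference of LPS responses ran from -0.86 to -0.55 for Fcgr1 and from -0.069 to 0.24 for Fcgr3 (-0.011 without batch 3).

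Untreated, Fcgr1 passed with only these groups fitted (-0.34), Fcgr4 with the batch as a block (-0.74), and Fcer1g did not pass with all genes kept (-0.19) or at an adjusted p of 0.01 (-0.20). Fcer1g did not pass for LPS in aged cells with library sizes alone (0.12). The Fcgr1 difference of responses passed by DESeq2 (-0.67), the batch block (-0.66) and with all genes kept (-0.64). The block changed no other call of a member. Library sizes alone gave 3167 higher and 1353 lower calls for aged against young under LPS (1794 and 1923 by TMM), 2172 and 5476 for LPS in aged cells (3523 and 3445) and 881 and 203 for the difference of responses. By the longest transcript, levels over all libraries were 9.03 for Fcgr2b, 56.2 for Fcgr3 and 315.5 CPM per kilobase for Fcer1g. The ratios to Fcgr2b became 7.53, 6.63, 2.42 and 2.40 for Fcgr1 and 1.59, 1.05, 1.91 and 1.58 for Fcgr4 in young untreated, aged untreated, young LPS and aged LPS cells, and 3.02 for Fcgr3 in aged LPS cells.

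The list alternatives were chosen after seeing the data. Untreated, DESeq2 called 2 other Fc receptors and 1 ITAM gene, the block 1 ITAM gene and 10 actin genes. For the difference of responses the block called 2 inhibitory genes, and DESeq2 and the block 1 actin gene each. Without young untreated replicate 1 or aged LPS replicate 3, the libraries left out for the lists, untreated counts ran from 1 to 2 for other Fc receptors, 0 to 1 for ITAM genes, 3 to 5 for transcription factors and 3 to 11 for interferon-induced genes, and from 1 to 2 for inhibitory genes in the difference of responses. Fcgr4 and Fcgr2b had the fewest counts among the receptors, 52 and 136 at the lowest, and the widest intervals.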
